A study of Rattus norvegicus with 6 samples.

Results

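Hox genes encode homeodomain transcription factors that give cells their position along the head-to-tail axis of the body. In mammals they lie in 4 clusters, HoxA to HoxD, and are numbered from 1 to 13 by paralogue group: low numbers are used towards the head, and high numbers towards the tail, the distal limb and the urogenital tract. Embryonic heart progenitors are known for anterior members such as Hoxa3, and connective tissue cells keep the Hox pattern of their site of origin in culture. The members here are all rows of the count tables named Hoxa, Hoxb, Hoxc or Hoxd followed by a number. That rule found 37 of the 39 mammalian Hox genes among 18077 rows, each once. Hoxb1 and Hoxd1 have no row.

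RNA sequencing had been done on 6 libraries of polyA RNA from rat heart cultures that the labels call neonatal rat cardiomyocytes, isolated from pups of 1 to 3 days, with pre-plating and BrdU used against fibroblasts. Every library, control or not, came from cells treated for 24 h with palmitic acid, a saturated fatty acid, at 500 µM, carrying an adenoviral vector and harvested after 48 h. There were 3 libraries labelled Ad-GFP (green fluorescent protein, the control) and 3 labelled Ad-RNF128 (a vector for a ubiquitin ligase, written once as RNF28 and once as RNF128 in the treatment protocol). The labels name no separate cultures or animals, so p-values reflect no more than the variation among these libraries, which could be technical.

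Some facts of the libraries bear on all results. Totals ran from 16352843 to 21708973 counts. Rnf128 itself was read 0, 2 and 1 times in the Ad-GFP libraries and 1, 3 and 1 times in those labelled Ad-RNF128, so the counts do not bear out that label, on which every direction below rests. These are counts of the rat gene's row alone, and vector sequence was not looked for. The labelled cell type was also poorly borne out by most of its markers. Myh6, the cardiac myosin heavy chain, lay between 10.8 and 16.0 CPM (counts scaled to the library total) in 5 libraries and at 0.104 CPM in Ad-RNF128 replicate 3, and Nppa, a natriuretic peptide of heart muscle, was at 0 there and at 2.72 to 3.97 CPM elsewhere. Tnnt2 and Nkx2-5, also markers of heart muscle cells, were higher. Tnnt2 was at 342 and 350 CPM in Ad-GFP replicates 2 and 3 and at 13.3 to 57.4 CPM elsewhere. Nkx2-5 was at 81.9 CPM in Ad-GFP replicate 1 and at 13.7 to 18.2 CPM elsewhere, with 18.2 CPM in Ad-RNF128 replicate 3. Collagen was abundant, with Col1a1 at 17690 and 18266 CPM in Ad-GFP replicates 2 and 3. Ad-GFP replicate 1 stood apart from every other library, and it is given separately throughout: results are reported both for all 6 libraries and without it.

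The Hox pattern of the libraries was broad rather than restricted to the front of the clusters. At a level of 1 CPM or more, 22 members were present in Ad-GFP replicate 1, 25 and 23 in Ad-GFP replicates 2 and 3, and 28, 27 and 28 in the libraries labelled Ad-RNF128. Over all genes, rows without a read numbered 3551, then 2288 and 2200, and then 1487, 1190 and 1458 in the same order. More genes of any kind were thus read in the libraries labelled Ad-RNF128. How many of all genes reached 1 CPM was not counted. A total of 18 members reached 1 CPM in all 6 libraries. They included anterior genes (Hoxa3, Hoxb2, Hoxd4) and posterior ones (Hoxa10, Hoxd9, Hoxd10, Hoxd13). Another 5 members, Hoxa2, Hoxa6, Hoxa9, Hoxa13 and Hoxb5, reached it in every library but Ad-GFP replicate 1. No library reached it for 8 members, which were Hoxa11, Hoxc9, Hoxc10, Hoxc12, Hoxc13, Hoxd3, Hoxd11 and Hoxd12. The remaining 6, which were Hoxb9, Hoxb13, Hoxc4, Hoxc5, Hoxc8 and Hoxc11, reached it in some libraries of the 6 and not in others.

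**Figure D1:**
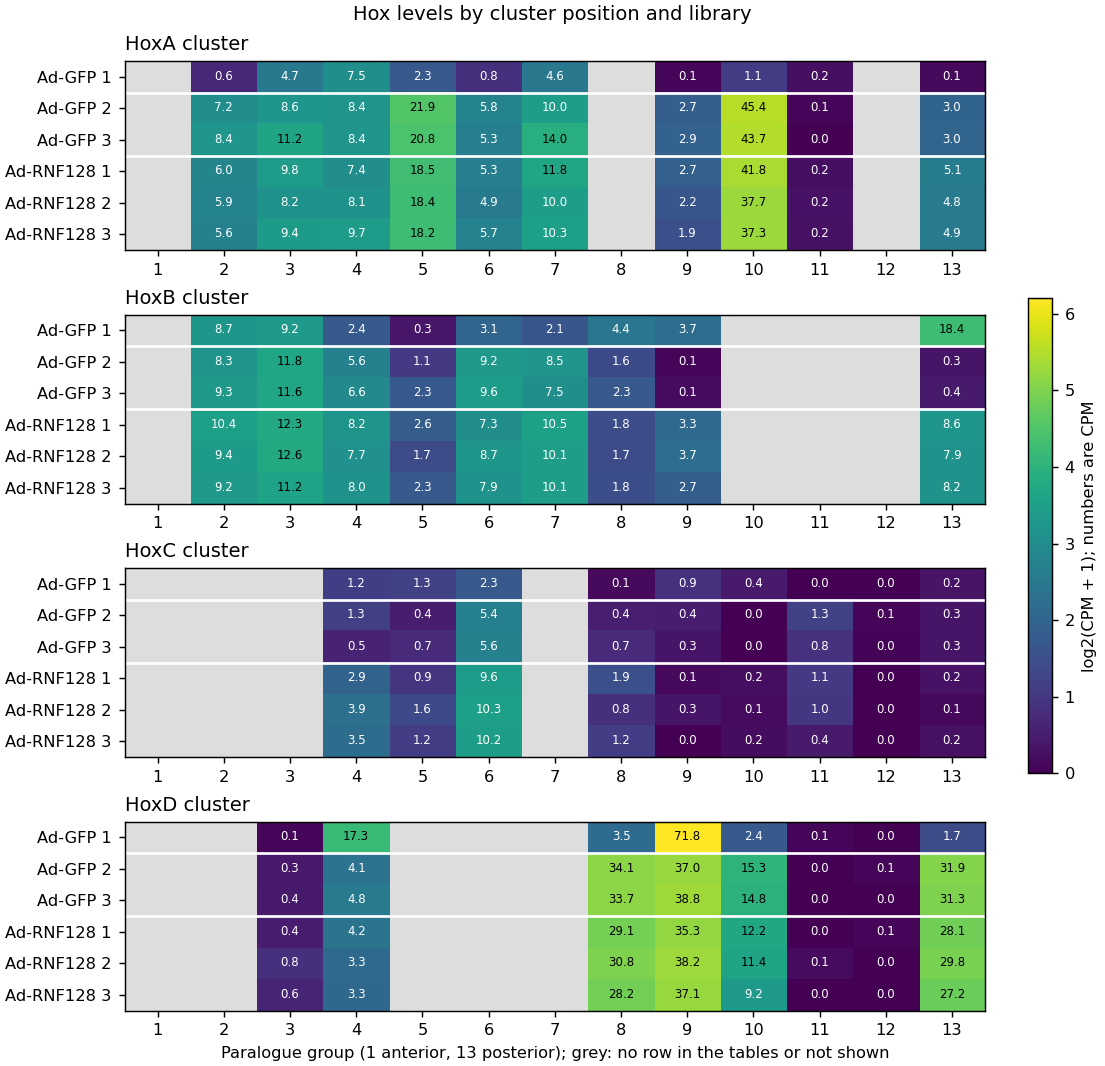
Level of each Hox gene in each library (rows) by paralogue group (columns) in the 4 clusters; colour is log2(CPM + 1), printed numbers are CPM, and grey marks positions with no row in the tables, most of which hold no gene in mammals, or not shown. Hoxb9 and Hoxb13 are near 0 in Ad-GFP replicates 2 and 3, and Ad-GFP replicate 1 differs from the other 5 libraries along HoxA and HoxD.

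In HoxD the posterior end held Hoxd13 at 27.2 to 31.9 CPM and Hoxd10 at 9.24 to 15.3 CPM in the 5 libraries other than Ad-GFP replicate 1. Between them, Hoxd11 had at most 3 counts in any library and Hoxd12 at most 1. In HoxA, Hoxa10 was at 37.3 to 45.4 CPM and Hoxa13 at 2.99 to 5.15 CPM in those 5 libraries, and Hoxa11 had at most 5 counts in any library. Hoxa13 and Hoxd13 act together in the distal limb and genital region, while Hoxa11 and Hoxd11 are known for the forearm and kidney. In HoxC, Hoxc9, Hoxc10, Hoxc12 and Hoxc13 stayed under 1 CPM in every library. Transcript lengths were not used here, so these levels are not ranked between genes.

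Upstream sequences are shown for 2 pairs of paralogues, Hoxa13 with Hoxd13 and Hoxc4 with Hoxd4, in each of which the first was called higher and the second lower in the libraries labelled Ad-RNF128 when Ad-GFP replicate 1 was left out. The calls of Hoxd13 and Hoxd4 ended with library totals, and with all 6 libraries Hoxa13 and Hoxd13 had the same sign, at log2 changes of 1.03 and 0.18. They are the 250 bases before the RefSeq start site in build GRCr8, 5′ to 3′ on the gene's strand, with each CG dinucleotide in capitals, since CG-rich stretches are a known feature of Hox clusters. The counts themselves were made on another build, mRatBN7.2.
Hoxa13 (chr4:82691702-82691951, minus strand): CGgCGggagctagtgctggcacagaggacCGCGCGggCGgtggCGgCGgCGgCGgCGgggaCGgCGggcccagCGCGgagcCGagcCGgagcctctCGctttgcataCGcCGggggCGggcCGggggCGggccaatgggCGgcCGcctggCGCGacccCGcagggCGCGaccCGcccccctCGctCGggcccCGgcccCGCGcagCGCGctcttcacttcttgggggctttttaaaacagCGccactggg
Hoxd13 (chr3:79977827-79978076, plus strand): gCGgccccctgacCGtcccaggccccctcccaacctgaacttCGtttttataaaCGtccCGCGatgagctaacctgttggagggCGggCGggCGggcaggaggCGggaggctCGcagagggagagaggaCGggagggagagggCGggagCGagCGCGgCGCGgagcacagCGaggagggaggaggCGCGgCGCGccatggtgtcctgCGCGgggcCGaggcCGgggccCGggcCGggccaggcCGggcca
Hoxc4 (chr7:136048809-136049058, plus strand): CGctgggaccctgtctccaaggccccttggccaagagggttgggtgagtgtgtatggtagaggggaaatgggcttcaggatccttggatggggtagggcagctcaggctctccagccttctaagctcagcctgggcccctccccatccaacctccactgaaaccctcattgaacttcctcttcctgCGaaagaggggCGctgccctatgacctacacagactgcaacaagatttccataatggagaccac
Hoxd4 (chr3:80021636-80021885, plus strand): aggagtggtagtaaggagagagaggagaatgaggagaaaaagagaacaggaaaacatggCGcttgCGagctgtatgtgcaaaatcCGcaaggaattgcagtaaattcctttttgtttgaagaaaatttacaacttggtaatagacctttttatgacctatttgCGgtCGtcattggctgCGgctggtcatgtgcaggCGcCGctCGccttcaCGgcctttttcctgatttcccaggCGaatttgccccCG
These windows hold 39, 30, 3 and 12 CG dinucleotides. The median over all 33469 windows of this length in the table is 5, and 1.43%, 5.35%, 71.4% and 31.5% of them hold as many or more. The table has 19 windows for 18 of the 37 members, and 18 of the 19 exceed that median, with Hoxc4 the exception. Of the 2 called higher, Hoxa13 has the CG-richest window of the 4 shown and Hoxc4 the poorest.

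The libraries labelled Ad-RNF128 were first compared with all 3 Ad-GFP libraries. With edgeR's quasi-likelihood test on the counts, no Hox gene passed an adjusted p of 0.05. Of 29 members tested, 0 were higher and 0 lower, and 0% of all 12863 genes tested were called in either direction. No member had an unadjusted p under 0.05, against 742 of all genes (5.77%; 3.36% higher and 2.41% lower), and DESeq2 called 0 members, beside 244 of all genes higher and 142 lower. Log2 changes of the members ranged from -2.33 to 1.19, and edgeR adjusted p values from 0.681 to 0.996. Ad-GFP replicate 1 is among the controls in this comparison.

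Without Ad-GFP replicate 1, 16 of 30 tested members passed, 6 higher and 10 lower in the libraries labelled Ad-RNF128. That is 53.3% of the members, beside 56.9% of all 13173 genes tested (28.9% higher and 28.0% lower), so the share of Hox genes called was near that of any other genes. With library totals in place of TMM scaling the balance turned over, to 9 members higher and 5 lower (all genes: 5354 higher and 2411 lower). At an unadjusted p under 0.05 there were 7 members higher and 11 lower, beside 61.4% of all genes (31.3% higher and 30.1% lower). The risers were Hoxa13, Hoxb9, Hoxb13, Hoxc4, Hoxc5 and Hoxc6, and the largest of their log2 changes was 4.77. The 10 that fell had log2 changes between -0.61 and -0.19. The median log2 change of the 30 members was -0.21, beside 0.01 for all genes.

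**Figure D2:**
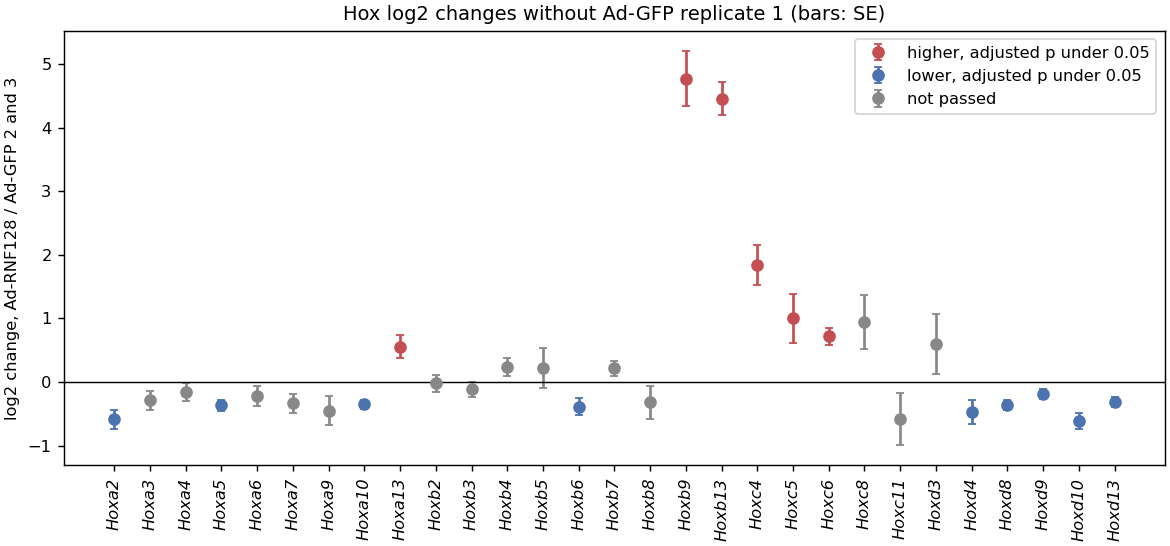
Log2 change (vertical axis) of 29 tested Hox genes (horizontal axis, ordered by cluster and position) in the 3 libraries labelled Ad-RNF128 over Ad-GFP replicates 2 and 3; points are edgeR estimates, bars their SE, and colours mark genes past an adjusted p of 0.05. Hoxb9 and Hoxb13 stand far above the others, while the genes that fell did so by small amounts.

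The posterior HoxB genes showed the largest difference. Hoxb13 (ENSRNOG00000007491), the last gene of the cluster, is known for the prostate and tail region, and in heart muscle cells as a partner of Meis1 in cell cycle exit. It was at 0.277 and 0.375 CPM in Ad-GFP replicates 2 and 3 (5 and 8 counts) and at 8.60, 7.88 and 8.15 CPM in the libraries labelled Ad-RNF128. Ad-GFP replicate 1 held the highest level of all, 18.4 CPM (301 counts). The log2 change of Hoxb13 without that library was 4.46 ± 0.26 (SE; edgeR adjusted p = 1.79e-09).

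Hoxb9 (ENSRNOG00000007573), its nearest Hox neighbour and a gene of the thoracic axis, followed the same order of groups. Its levels were 0.0554 and 0.141 CPM in Ad-GFP replicates 2 and 3, from 1 and 3 counts, against 3.33, 3.73 and 2.70 CPM in the libraries labelled Ad-RNF128. Ad-GFP replicate 1 had 3.67 CPM, within the range of the latter. The log2 change without it was 4.77 ± 0.44 (edgeR adjusted p = 3.29e-07). With so few control reads the ratio of pooled counts was 32.2, with a 95% counting interval of 12.4 to 119. With all 6 libraries the log2 changes were -0.96 for Hoxb13 and 0.07 for Hoxb9, so the difference in both genes was seen only with Ad-GFP replicate 1 left out, and the sign for Hoxb13 turned with it.

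Of the other 7 tested HoxB genes 1 passed. Hoxb8, next to Hoxb9, was at 1.61 and 2.30 CPM in Ad-GFP replicates 2 and 3 and at 1.75, 1.70 and 1.82 CPM in the libraries labelled Ad-RNF128, and these groups overlap. Hoxb7 was at 8.47 and 7.45 CPM against 10.5, 10.1 and 10.1 CPM, and Hoxb4 at 5.59 and 6.56 CPM against 8.25, 7.74 and 7.998 CPM. Both were higher in each of the 3 libraries on the CPM scale, yet neither passed after TMM scaling, while both passed with library totals alone. Hoxb6 fell slightly, from 9.20 and 9.61 to 7.31, 8.71 and 7.95 CPM. Hoxb2 was at 8.68 CPM in Ad-GFP replicate 1, 8.31 and 9.28 in the other controls and 10.4, 9.44 and 9.24 in the libraries labelled Ad-RNF128. Hoxb3 was at 9.23, then 11.8 and 11.6, and then 12.3, 12.6 and 11.2 CPM in the same order. Hoxb5 was at 0.306, then 1.05 and 2.25, and then 2.57, 1.70 and 2.34 CPM. None of these 3 passed. Ad-GFP replicate 1 held 2.38 CPM of Hoxb4, 3.06 of Hoxb6 and 2.14 of Hoxb7. For these 3 genes, Hoxb3 and Hoxb5 it was below the other 5 libraries on library totals.

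In HoxC the genes called higher were the 3 anterior ones, which act in the neck and upper trunk. Hoxc4 was at 1.27 and 0.516 CPM in Ad-GFP replicates 2 and 3 and at 2.92, 3.92 and 3.53 CPM in the libraries labelled Ad-RNF128. Its log2 change was 1.84 ± 0.31 (edgeR adjusted p = 0.000164). Hoxc6 rose from 5.37 and 5.58 CPM to 9.59, 10.3 and 10.2 CPM, a log2 change of 0.72 ± 0.13 (edgeR adjusted p = 0.000346).

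Hoxc5, between them, was at 0.388 and 0.703 CPM against 0.936, 1.57 and 1.19 CPM (log2 change 1.00 ± 0.39, edgeR adjusted p = 0.0394), on 7 to 34 counts a library. In RefSeq the span of Hoxc6 overlaps those of Hoxc4 and Hoxc5, and 12 of the 37 members overlap another gene in this way. These are overlaps of whole spans, not of exons alone. Whether counting used strand, and how it treated reads in shared stretches, is not known from the labels. Levels of overlapping genes may therefore not be independent. Hoxc8 had 8 and 15 counts against 32, 17 and 23, with 2 in Ad-GFP replicate 1. In the comparison above it did not pass, though it did with library totals and on leaving out Ad-RNF128 replicate 2. Hoxc11 was at 1.33 and 0.844 CPM against 1.05, 0.967 and 0.364 CPM, with 0 counts in Ad-GFP replicate 1, and did not pass either. Ad-GFP replicate 1 held 1.22 CPM of Hoxc4, 1.28 of Hoxc5 and 2.32 of Hoxc6, the last below every other library on library totals.

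**Figure D3:**
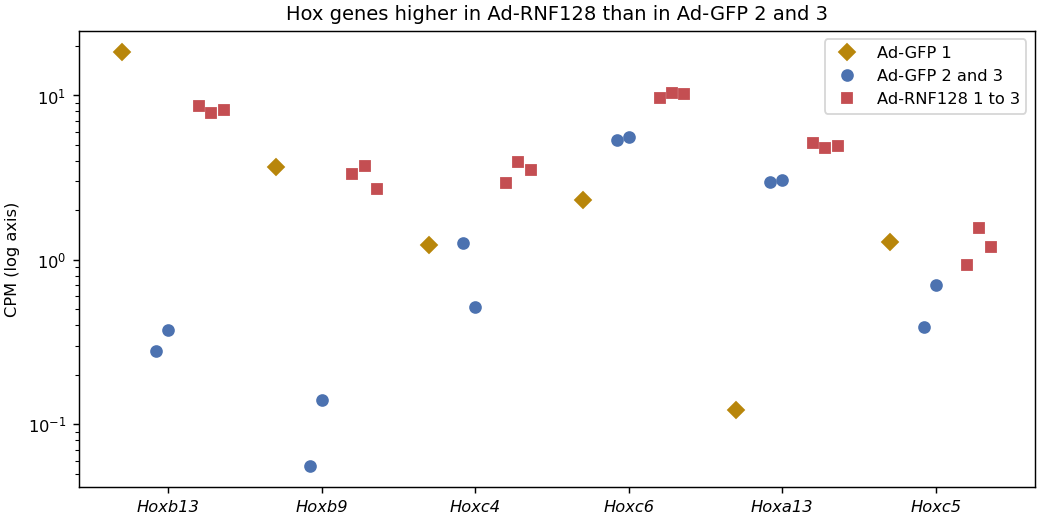
CPM (log axis) of the 6 Hox genes that were higher in the libraries labelled Ad-RNF128 than in Ad-GFP replicates 2 and 3; each point is 1 library. Squares lie above circles for each of these genes, which were chosen as higher on the same values. The diamond of Ad-GFP replicate 1 is highest for Hoxb13 (18.4 CPM) and lowest for Hoxa13 (0.122 CPM).

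Hoxa13 was the only HoxA gene called higher. It was at 2.99 and 3.05 CPM in Ad-GFP replicates 2 and 3 and at 5.15, 4.79 and 4.93 CPM in the libraries labelled Ad-RNF128 (log2 change 0.56 ± 0.18, edgeR adjusted p = 0.0138). The call ended without Ad-GFP replicate 2 and with DESeq2, at log2 changes of 0.52 and 0.55. Its paralogue Hoxd13 went the other way by a small amount, from 31.9 and 31.3 CPM to 28.1, 29.8 and 27.2 CPM (log2 change -0.31 ± 0.08, edgeR adjusted p = 0.00353). With library totals alone the log2 change of Hoxd13 was -0.15 and did not pass.

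Most of the falls were under 0.6 on the log2 scale. Hoxd10, a regulator of the hindlimb and lumbar region, was at 15.3 and 14.8 CPM in Ad-GFP replicates 2 and 3 and at 12.2, 11.4 and 9.24 CPM in the libraries labelled Ad-RNF128 (log2 change -0.61 ± 0.12, edgeR adjusted p = 0.000588). Hoxa10, known for the uterus and lower spine, fell from 45.4 and 43.7 CPM to 41.8, 37.7 and 37.3 CPM, with a log2 change of -0.35 ± 0.07. Hoxd8 fell from 34.1 and 33.7 CPM to 29.1, 30.8 and 28.2 CPM, with -0.36 ± 0.08. In each of these 3 genes Ad-GFP replicate 1 was below both groups, at 2.38 CPM for Hoxd10, 1.10 for Hoxa10 and 3.49 for Hoxd8.

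Genes towards the front of the clusters fell as well, among them Hoxa5, Hoxa2 and Hoxd4, the last given below. Hoxa5, which acts in the lung and rib cage, went from 21.9 and 20.8 CPM to 18.5, 18.4 and 18.2 CPM (log2 change -0.37 ± 0.08). Hoxa2, a gene of the second branchial arch, went from 7.201 and 8.44 CPM to 6.02, 5.85 and 5.56 CPM (log2 change -0.59 ± 0.15); without Ad-GFP replicate 3 it was -0.44 and no longer passed. Ad-GFP replicate 1 held 2.32 CPM of Hoxa5 and 0.612 CPM of Hoxa2, below the other 5 libraries.

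Among further HoxA genes, Hoxa3 was at 4.71 CPM in Ad-GFP replicate 1, 8.59 and 11.2 in the other controls and 9.77, 8.15 and 9.40 in the libraries labelled Ad-RNF128. In the same order, Hoxa4 was at 7.52, at 8.42 and 8.39, and at 7.43, 8.06 and 9.71 CPM. Hoxa6 was at 0.795, at 5.82 and 5.30, and at 5.26, 4.93 and 5.71 CPM. None of the 3 passed.

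Hoxa7 and Hoxa9 did not pass either. Hoxa7 was at 4.59 CPM in Ad-GFP replicate 1, 9.97 and 13.97 in the other controls and 11.8, 10.04 and 10.3 in the libraries labelled Ad-RNF128. Hoxa9 was at 0.0612, at 2.66 and 2.86, and at 2.75, 2.17 and 1.87 CPM. Log2 changes of the 14 members that did not pass ran from -0.59 to 0.94, with edgeR adjusted p from 0.0696 to 0.893. The 7 members not tested, Hoxa11, Hoxc9, Hoxc10, Hoxc12, Hoxc13, Hoxd11 and Hoxd12, had at most 14 counts in any library.

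Hoxb6, Hoxd4 and Hoxd9 passed after TMM scaling and not with library totals. On the CPM scale Hoxd9, at 37.0 and 38.8 against 35.3, 38.2 and 37.1 CPM, overlapped between groups. Hoxd4 was at 4.10 and 4.78 CPM against 4.21, 3.32 and 3.27 CPM, also with overlap. Leaving out single libraries ended the calls of Hoxb6 (Ad-GFP replicate 3 or Ad-RNF128 replicate 1) and of Hoxc5 (Ad-GFP replicate 2 or Ad-RNF128 replicate 2 or 3). It also ended those of Hoxd4 (Ad-GFP replicate 3 or Ad-RNF128 replicate 2 or 3) and Hoxd9 (each library except Ad-GFP replicate 2). Under all 11 alternatives 8 members passed in the same direction: Hoxb9, Hoxb13, Hoxc4 and Hoxc6 higher, and Hoxa5, Hoxa10, Hoxd8 and Hoxd10 lower. Where Ad-GFP replicate 2 or 3 was left out, 1 control remained, which was assumed to vary like the libraries labelled Ad-RNF128. How many of all genes passed under all 11 alternatives was not counted, so these 8 members are not set apart from other genes.

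Summed over all members, the Hox level was nearly equal in the 5 libraries. The sum was 300 and 307 CPM in Ad-GFP replicates 2 and 3, and 307, 303 and 294 CPM in the libraries labelled Ad-RNF128, a ratio of the means of 0.992. That equality holds on library totals; with TMM-scaled sizes the sums were 273.3 and 285.8 CPM against 250.6, 248.5 and 243.7 CPM. The clusters differed in share. HoxC summed to 9.53 and 8.95 CPM against 16.9, 18.1 and 16.8 CPM, and HoxB to 46.4 and 49.6 CPM against 65.0, 63.7 and 61.5 CPM. Much of the HoxB difference came from Hoxb13 and Hoxb9, with means of 0.326 and 0.0980 CPM against 8.21 and 3.26 CPM. These cluster sums are on library totals. HoxA went from 121 and 125 CPM to 115, 107 and 110 CPM, and HoxD from 123 and 124 CPM to 109, 114 and 106 CPM. Paralogue groups 9 to 13 took 45.9% and 44.4% of the Hox CPM in Ad-GFP replicates 2 and 3 and 45.4%, 45.4% and 44.0% in the libraries labelled Ad-RNF128. These sums and shares are descriptions with no test, and in bulk RNA fewer cells with a gene on and less RNA per cell cannot be told apart.

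**Figure D4:**
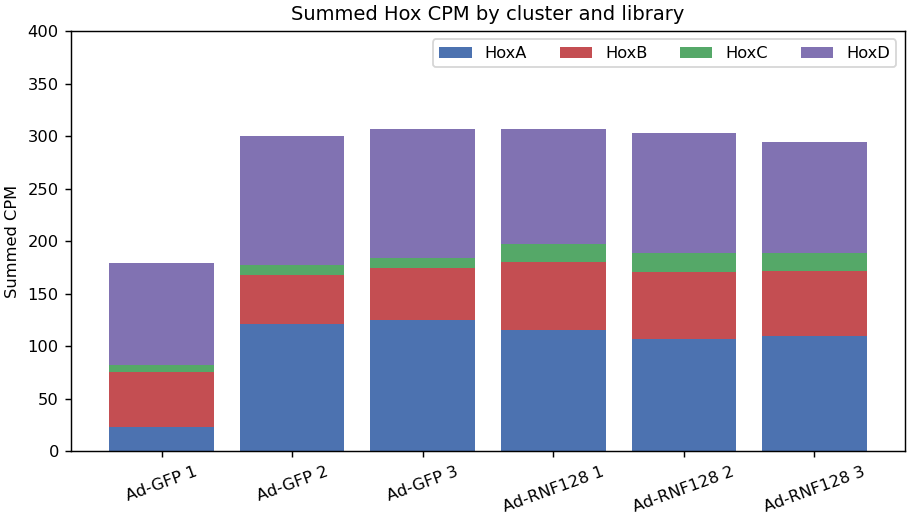
Summed CPM of the Hox genes in each library, stacked by cluster (HoxA at the bottom, HoxD at the top), with library on the horizontal axis. The 5 libraries other than Ad-GFP replicate 1 sum to between 294 and 307 CPM, with more HoxB and HoxC in the 3 labelled Ad-RNF128, and Ad-GFP replicate 1 sums to 179 CPM with little HoxA.

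Ad-GFP replicate 1 carried another Hox pattern than its 2 fellow controls. On library totals its members summed to 179 CPM, below the other 5 libraries, but with TMM-scaled library sizes they summed to 380.5 CPM, above the 250.6, 248.5 and 243.7 CPM of the libraries labelled Ad-RNF128 (TMM factor 0.470 against 1.08 to 1.22). The levels that follow are on library totals. Of the 179 CPM, HoxD gave 54.0% and HoxA 13.2%, against 40.9% and 40.5% in Ad-GFP replicate 2. Hoxd9 alone was at 71.8 CPM (1174 counts), against 35.3 to 38.8 CPM in the other 5 libraries. Hoxd4 was at 17.3 CPM against 3.27 to 4.78 CPM, and Hoxb8 at 4.40 CPM against 1.61 to 2.30 CPM. By contrast, Hoxa10 was at 1.10 CPM, where the other 5 ranged from 37.3 to 45.4 CPM, and Hoxd13 was at 1.65 CPM, where they ranged from 27.2 to 31.9 CPM. Hoxa13 had 2 counts and Hoxa9 had 1.

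The 95% Poisson interval of this library's level lay above all 5 others for 5 members (Hoxb8, Hoxb13, Hoxc9, Hoxd4 and Hoxd9) and below all 5 for 20. Among members with a mean of at least 1 CPM, 4 of 27 lay above (14.8%) and 18 below (66.7%). Over all 12036 genes at that level the shares were 23.4% and 64.0%, so Hox genes departed about as often as other genes did. On library totals, Hoxa4 and Hoxb2 were within the range of the others, at 7.52 and 8.68 CPM. TMM-scaled sizes would raise this library's levels relative to the others, and sides were not counted on that scale. Across the 37 members, Spearman's rho between this library and the others was 0.55 to 0.69. It was 0.99 between Ad-GFP replicates 2 and 3, 0.98 to 0.99 among the libraries labelled Ad-RNF128, and 0.90 to 0.93 between those 2 sets. Over all rows, rho was 0.78 to 0.82 between Ad-GFP replicate 1 and the others, and 0.96 to 0.97 between those 2 sets. These libraries share their gene annotation and culture type, so the correlations only describe the ordering.

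**Figure D5:**
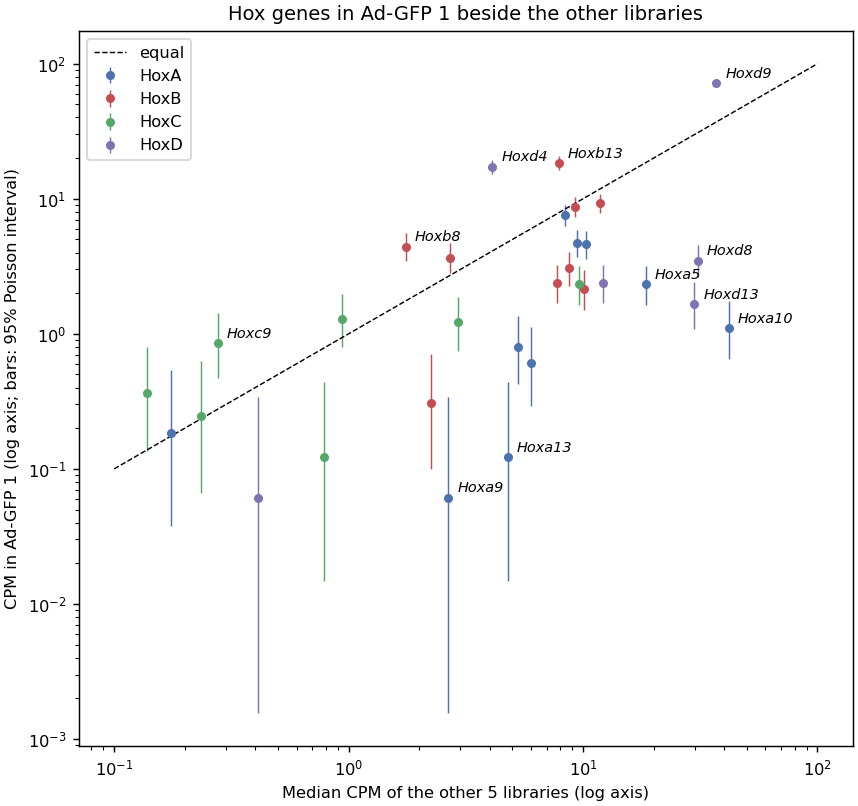
CPM of 32 Hox genes in Ad-GFP replicate 1 (vertical, log axis, bars 95% Poisson intervals) against the median of the other 5 libraries (horizontal, log axis), coloured by cluster; the dashed line marks equal levels and the 4 genes with a 0 on an axis are not plotted. Hoxd9, Hoxd4, Hoxb13 and Hoxb8 lie above the line, and most HoxA genes lie below it, with Hoxa10 at 1.10 against 41.8 CPM.

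Hox proteins bind DNA with PBC and MEIS class partners. All 9 cofactor genes in the list were tested. Without Ad-GFP replicate 1, 2 rose and 3 fell (55.6%, beside 56.9% of all genes), with a median log2 change of -0.14, and with all 6 libraries 0 of 9 were called. Pknox2, a MEIS-related partner, was at 23.6 and 26.0 CPM in Ad-GFP replicates 2 and 3 and at 11.9, 11.7 and 11.1 CPM in the libraries labelled Ad-RNF128 (log2 change -1.26 ± 0.10, edgeR adjusted p = 5.51e-08). Meis3 rose by 0.64 and Meis2 fell by 0.47 on the log2 scale. In Ad-GFP replicate 1, Pknox2 was at 1.10 CPM and Meis2 at 3.18 CPM, below every other library on library totals. Meis3 was at 47.6 CPM in Ad-GFP replicate 1, against 9.64 and 10.1 CPM in the other 2 controls, and its log2 change over all 6 libraries was -1.50.

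Among upstream caudal, Gdf11 and retinoic acid genes, which set Hox expression in the embryo, 11 of 22 were tested, and without Ad-GFP replicate 1 3 rose and 2 fell (45.5%, beside 56.9% of all genes). Aldh1a3, which makes retinoic acid, was at 0.222 and 0.375 CPM against 1.93, 1.75 and 1.92 CPM (log2 change 2.44 ± 0.37, edgeR adjusted p = 6.07e-05). Cyp26b1, which degrades it, rose by 0.93, and its receptor gene Rara fell by 0.33, on the log2 scale. Ad-GFP replicate 1 held 0.122 CPM of Aldh1a3, 0.795 of Cyp26b1 and 49.8 of Rara, each the lowest of the 6 libraries on library totals. Over all 6 libraries none of these genes passed. The list's median log2 change was -0.14 without Ad-GFP replicate 1.

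Polycomb and trithorax proteins keep Hox clusters silent or active, and CTCF marks borders within them. Of 32 tested genes of this list, 6 rose and 17 fell without Ad-GFP replicate 1, with a median log2 change of -0.25. The called share was 71.9%, beside 56.9% of all genes. Nsd1, a histone H3 methyltransferase, fell from 27.2 and 25.9 CPM to 13.7, 14.97 and 13.2 CPM (log2 change -1.08 ± 0.09, edgeR adjusted p = 1.19e-07). Men1, the scaffold of a trithorax complex, fell by 0.73 and Ctcf by 0.65 on the log2 scale. With Ad-GFP replicate 1 included these values became -0.54, -0.82 and -0.13, and none passed. That library held 0.428 CPM of Nsd1, 53.3 of Men1 and 3.79 of Ctcf, each below every other library on library totals.

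Genes beside the clusters were read for comparison. Without Ad-GFP replicate 1, 3 of 13 tested neighbours rose and 6 fell (69.2%, beside 56.9% of all genes), and with all 6 libraries 0 of 13 were called. Ttll6, a tubulin-modifying enzyme gene that in RefSeq is the nearest listed gene beyond Hoxb13, was at 0 and 0.0469 CPM in Ad-GFP replicates 2 and 3 and at 0.760, 0.829 and 0.935 CPM in the libraries labelled Ad-RNF128 (edgeR adjusted p = 0.00013). Unlike Hoxb13, it was low in Ad-GFP replicate 1, at 0.0612 CPM. Atp5mc2, an ATP synthase subunit gene near HoxC, fell by 1.52 and Hibadh, near HoxA, by 0.43 on the log2 scale. In Ad-GFP replicate 1, Atp5mc2 was at 518 CPM, above every other library, and Hibadh at 4.65 CPM, below every other library. The list's median log2 change was -0.14.

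Markers of cell types moved between the same groups of libraries. Counts of markers called are from the comparison without Ad-GFP replicate 1, where 56.9% of all genes were called; with all 6 libraries 0 markers of any list were called. Fibroblast markers (9 genes) summed to 38416 and 40049 CPM in Ad-GFP replicates 2 and 3, to 10538 to 11450 CPM in the libraries labelled Ad-RNF128, and to 3243 CPM in Ad-GFP replicate 1, and of 8 tested 0 rose and 5 fell. These sums were mostly Col1a1, Col1a2 and Col3a1. Dcn, Lum, Pdgfra and Tcf21 stayed at 2.86 CPM or less in every library, and Thy1 did not fall (log2 change 0.17). Cardiomyocyte markers (12 with a row) summed to 414 and 410 CPM, 53.5 to 140 CPM and 161 CPM in the same order of libraries, and of 10 tested 0 rose and 1, Tnnt2, fell. Tnnt2 gave most of the sum in Ad-GFP replicates 2 and 3. Skeletal myogenic markers (10) summed to 119 and 122 CPM, 52.4 to 53.9 CPM and 82.6 CPM, and of 9 tested 1 rose and 6 fell. Smooth muscle markers (5) summed to 5427 and 6026 CPM, 5142 to 5726 CPM and 4827 CPM, and 2 of 5 rose and 2 fell.

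The other lists were low or rested on 1 gene. The endothelial list summed to at most 7.78 CPM in any library (2 of 2 tested rose) and the Schwann list to at most 1.55 CPM (0 of 1 called). The leukocyte list reached 34.2 CPM, mostly Cd14, with Ptprc at 0 in 4 libraries (2 of 3 tested rose). The mesothelial list reached 57.7 CPM, mostly Msln (1 of 2 fell), and the epithelial list 84.5 CPM, mostly Krt8 (1 of 1 rose). Their part in the Hox differences was not tested.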

How the data were processed

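PolyA RNA of 6 rat heart culture libraries was sequenced, and the deposited tables hold whole-number counts per gene, made by the authors with HISAT2 and HTSeq 0.13.5 on build mRatBN7.2, per the submitters' processing notes. The deposited table of Ad-GFP replicate 1 holds 1 value that is not whole and is therefore listed as an expected count table, with that value rounded down before use. Strand settings are not given in the sources used here. Counts were fitted with edgeR 4.0.16 in R 4.3.3 (quasi-likelihood test, filterByExpr, TMM scaling), with Benjamini-Hochberg adjustment over all genes and a threshold of 0.05. CPM is the count scaled to the library total. The tests compared 3 libraries labelled Ad-RNF128 with 3 or, without replicate 1, 2 Ad-GFP libraries. Intervals cover counting error only, and reads without molecular identifiers are not independent molecules. DESeq2 1.42.0, other scalings and filters, a replicate block and leaving out each library were alternatives. The fits were tested on simulated data in which no library stood apart as Ad-GFP replicate 1 does, so that case was not tested.

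The members and lists were chosen with earlier results of these data known. Every Hox gene could be named, but 1 member is counted in totals and otherwise not reported here. Values in every library were given where a group mean reached 1 CPM or the gene passed, and test values for at most 15 members with the smallest p without Ad-GFP replicate 1. From each other list at most 3 genes were named by the same p, besides cell type markers. Promoter windows come from RefSeq (GRCr8). No 2 libraries differed by as little as sampling noise.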

Additional observations from a re-analysis of the deposited data

How the results depend on the processing

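With all 6 libraries, 0 Hox genes passed under each alternative except without Ad-GFP replicate 1, which gave 6 higher and 10 lower. Genes passing numbered 8 higher with library totals only, and 244 higher and 142 lower with DESeq2; leaving out 1 library gave 0 to 3812 higher and 0 to 3689 lower. Without Ad-GFP replicate 1, 8 Hox genes passed under all 11 alternatives; the number lower was 5 with library totals only (9 higher), 6 with DESeq2 and at lowest 6 on leaving out a further library (Ad-GFP replicate 3), and genes lower numbered 2411 with library totals only, where the median of all genes moved from 0.01 to 0.17. How many of all genes passed under all 11 alternatives was not counted. Summed Hox CPM with TMM-scaled sizes was 380.5 in Ad-GFP replicate 1 and 250.6, 248.5 and 243.7 in the libraries labelled Ad-RNF128. Log2 changes over all 6 libraries that turned sign were, with library totals only, Hoxb13 0.37, Hoxd10 0.015, Hoxa2 0.10, Hoxb6 0.13 and Hoxc5 0.64. With median-of-ratios factors they were Hoxb9 -0.47, Hoxd8 -0.042 and Hoxa5 -0.065, and with DESeq2 -0.52, -0.047 and -0.072. With the replicate block they were Hoxb13 2.77, Hoxa2 0.15 and Hoxc5 0.22. Leaving out 1 library gave ranges of -1.53 to 4.46 for Hoxb13, -0.52 to 4.77 for Hoxb9, -0.36 to 0.34 for Hoxd8, -0.35 to 0.57 for Hoxa10, -0.37 to 0.31 for Hoxa5, -0.59 to 0.28 for Hoxa2, -0.31 to 0.53 for Hoxd13 and -0.66 to 1.00 for Hoxc5. Leaving out Ad-GFP replicate 1 gave 1 end of each of these ranges. The cause was not tested. Deviations from the group mean correlated at -0.22, 0.03 and -0.18 between same-numbered libraries of the 2 groups. Those of Ad-GFP replicates 2 and 3 were alike, at 0.22 and 0.20 with Ad-RNF128 replicate 1 and -0.21 and -0.18 with replicate 3. Ad-GFP replicate 1 had the opposite signs, -0.22 and 0.20. Its distance from its group thus sets these values, and the check cannot show whether the numbers pair libraries. The replicate block gave 0 Hox genes over all 6 libraries and left 13 of the 16 without Ad-GFP replicate 1 (Hoxb6 and Hoxd9 were among those that did not pass, and Hoxa7 did). The 7 members not tested had at most 14 counts in any library, and with no low-count filter Hoxc10 was called without Ad-GFP replicate 1.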

Other observations

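Other transcription factors of regional identity differed between the same libraries. Of 21 tested genes of this list, 6 were higher and 9 lower in the libraries labelled Ad-RNF128 without Ad-GFP replicate 1 (71.4%, beside 56.9% of all genes), and 0 of 20 passed with all 6 libraries. Tbx18, a T-box gene of the epicardium and sinus horn, was at 2.20 CPM in Ad-GFP replicate 1, 81.0 and 81.7 CPM in the other controls and 59.0, 51.2 and 53.5 CPM in the libraries labelled Ad-RNF128 (log2 change -0.73, edgeR adjusted p = 8.33e-07). Gbx2, a homeobox gene of the hindbrain border, fell by 2.55 on the log2 scale, from 2.38 and 1.88 CPM to 0.468, 0.415 and 0.312 CPM. It was lowest in Ad-GFP replicate 1, at 0.0612 CPM. Prrx2, a homeobox gene of limb mesenchyme, rose by 1.65, from 1.61 and 2.11 CPM to 5.38, 7.42 and 6.86 CPM, and was highest in Ad-GFP replicate 1, at 16.4 CPM.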
